A study of Mus musculus with 15 samples.

Results

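The translation initiation and elongation factors of mouse skeletal muscle were read by 118 probe sets for 52 genes, among the 22690 probe sets of the MOE430A array. They were taken by name, as every probe set with a single gene symbol that begins with Eif or Eef followed by a digit. Another 6 probe sets that list such a symbol together with other genes were left out. Gastrocnemius, a calf muscle in which fast fibers prevail, came from male C57BL/6NHsd mice housed singly, with 1 array per mouse and 5 mice per group. The old CR mice were 25 months old and had been under caloric restriction for life, with an energy intake that differed by 26% from that of the normal diet, while protein, vitamins and minerals were supplied in nearly equal amounts. The old mice (25 months) and the young mice (5 months) received the normal diet of 84 kcal per week, which itself lies about 15% below free feeding, so the controls were not fed to appetite. The old CR mice carry the replicate numbers 2, 3, 5, 6 and 7. All values are linear intensities as deposited, from polyadenylated RNA of whole muscle, and an array reads transcripts and not the proteins they encode. In such bulk RNA, fewer cells of a type and less RNA per cell cannot be told apart.

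Protein synthesis begins when eIF2 brings the initiator tRNA to the small ribosomal subunit, eIF3 holds that subunit open, and the eIF4 factors bind the cap of the mRNA and draw it in. After scanning to the start codon, eIF5 and eIF5B let the large subunit join, and the elongation factors eEF1 and eEF2 then add amino acids and move the ribosome along. Cells adjust the rate mainly through kinases that phosphorylate eIF2alpha, through 4E-BP proteins that sequester the cap-binding factor eIF4E below mTORC1, and through a kinase that inactivates eEF2, and in muscle these steps set much of the response to food and exercise.

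One technical measure differed between the groups and stands beside every value below. Probes at the 3′ and 5′ ends of the Gapdh and Actb control transcripts give a 3′ minus 5′ log2 difference, which is larger where fewer labelled copies extend to the 5′ end. For Gapdh this 3′ excess was -0.21 ± 0.12 in old CR, 0.25 ± 0.10 in old and -0.04 ± 0.19 in young mice (SD, n = 5 each). For Actb it was -0.38 ± 0.09 in old CR, 0.01 ± 0.11 in old and -0.32 ± 0.09 in young mice. Old CR and old mice did not overlap in either control (exact permutation test, two-sided, p = 0.00794 for both, adjusted p = 0.0159 over 6 tests), and p = 0.00794 is the smallest that 5 mice against 5 can give. Old and young mice did not overlap for Actb either (exact permutation test, p = 0.00794, adjusted p = 0.0159), while for Gapdh they did (exact permutation test, p = 0.0397, adjusted p = 0.0595). Young replicate 3 stood apart: averaged over both controls its 3′ minus 5′ difference was 0.056, inside the range of the old mice (0.049 to 0.274), whereas the other young mice lay between -0.277 and -0.177. The summed intensity of 9 fast fiber markers ranged from 208344 to 315406 in old CR (median 299645), 195451 to 263759 in old (median 240875) and 243416 to 279882 in young muscle (median 264387), and all 9 were brighter than the median probe set. Summed markers of fibroblasts (5 genes) ranged from 11795 to 15381 in old CR, 14612 to 22344 in old and 18711 to 31319.9 in young muscle, and those of B and plasma cells (4 genes) ranged from 712 to 3191 in old CR, 2094 to 6255 in old and 1492 to 3197 in young muscle. Ighm, the heavy chain of immunoglobulin M, made up most of the sum for B and plasma cells (a mean of 1552 in old CR, 3691 in old and 1656 in young mice), and Cd79a of B cells ran the other way (217 in old CR, 184 in old and 256 in young mice). The part of these cell types in the results below was not tested.

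In old CR against old muscle, 7 of the 118 translation factor probe sets, from 5 genes, were called at an adjusted p under 0.05 (limma with Benjamini-Hochberg adjustment over the 22626 probe sets tested). Higher in old CR mice were 6 of them, reading Eif3a, Eef1d, Eif2ak3 and Eif2s3y, and 1 was lower, reading Eif4ebp2. The 6 higher make 5.08% of the members, where 2.70% of all probe sets were called higher, and the 1 lower makes 0.847%, where 2.17% were called lower. At an unadjusted p under 0.05, 18 members were higher and 15 lower, or 15.3% and 12.7%, beside 12.5% and 9.33% of all probe sets. The old CR and old mice did not overlap at 18 members (15.3%), beside 8.89% of all probe sets. Most members are bright, and 94 of the 118 lie above the median probe set. In a fit of the brighter probe sets alone, 16 of these 94 (17%) were called, beside 15.7% of all brighter probe sets (limma). The median log2 difference was 0.01 over the members and 0.06 over all probe sets. After centering the arrays on their medians 7 members were called, 4 higher and 3 lower, of which 5 were among the 7 above, and 4.89% of all probe sets were called.

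No translation factor probe set was called in old against young muscle, where 0.119% of all probe sets were called higher and 0.146% lower (limma). At an unadjusted p under 0.05, 14 members were higher and 14 lower in old mice (11.9% each), beside 6.24% and 9.25% of all probe sets. The groups did not overlap at 6 members (5.08%), 5 of them higher in old mice, beside 3.61% of all probe sets. In a fit of the brighter probe sets alone, 6 of the 94 bright members (6.38%) were called, beside 5.06% of all brighter probe sets (limma). The median log2 difference was 0.08 over the members and -0.06 over all probe sets. Without young replicate 3, 11 members (9.32%) were called in old against young, 5 higher and 6 lower in old mice, and 4.72% of all probe sets, against 0.265% with every array. Leaving out that mouse also moved old CR against old, where 16 members (13.6%) and 7.32% of all probe sets were then called. Young replicate 3 had the lowest young value at 12 of the 14 members that were lower in old mice at an unadjusted p, and the highest at 9 of the 14 that were higher. Over all probe sets past that threshold these shares were 56.0% and 46.0%.

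**Figure D1:**
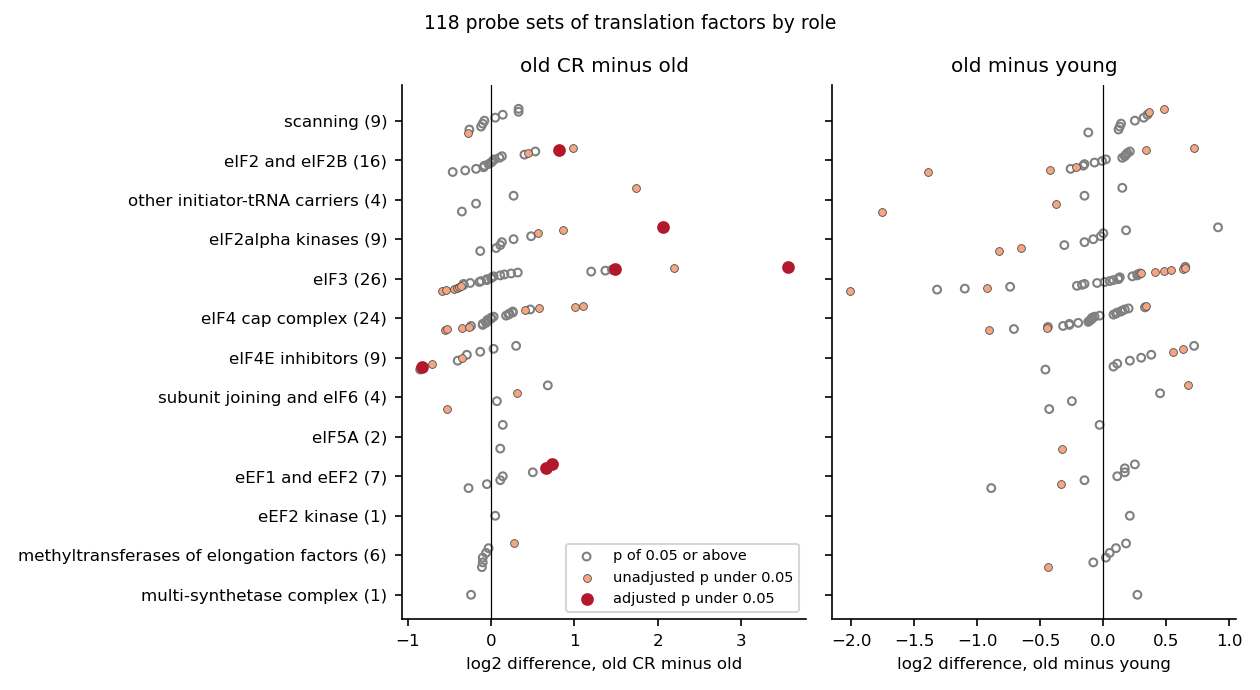
Log2 difference of each of the 118 probe sets (horizontal axes) by the role of its gene (vertical axis, with the number of probe sets), for old CR minus old on the left and old minus young on the right. Red points passed an adjusted p under 0.05 and orange points an unadjusted p under 0.05. The 7 red points are all in old CR minus old, where they run from -0.83 for Eif4ebp2 to 3.56 for Eif3a.

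Between old CR and young muscle no member was called either, where 0.0486% of all probe sets were called higher and 0.0398% lower (limma). At an unadjusted p under 0.05, 11 members were higher and 8 lower in old CR mice (9.32% and 6.78%), beside 5.83% and 6.26% of all probe sets. The groups did not overlap at 6 members (5.08%, beside 3.57% of all probe sets), and the median log2 difference was 0.05 over the members and -0.01 over all probe sets. The comparisons share their groups, since the old mice stand in 2 of them, so a low value there enters both differences. Eif2s3x, Eif4a1, Eif3a, Eif3e and Eif5b are also on a list of age-related genes that the study drew from these same mice, so their values with age are not independent of that choice. The study used another method, an empirical Bayes model of RMA values. It listed Eif2s3x 1421895_at and Eif4a1 1430980_a_at as lower in old mice. As higher it listed Eif3a 1416659_at, Eif3e 1439268_x_at and Eif5b 1434604_at.

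eIF2 and its exchange factor eIF2B load the initiator tRNA, and 16 probe sets read them. In old CR against old muscle 1 was called, and at an unadjusted p 3 were higher and none lower, while in old against young muscle 2 were higher and 3 lower. Beside this role and those below, 2.70% of all probe sets were called higher and 2.17% lower in old CR against old. Over all probe sets the shares at an unadjusted p, for this role and those below, were 12.5% higher and 9.33% lower in old CR against old. They were 6.24% and 9.25% in old against young. The called probe set reads Eif2s3y, the Y-linked gene of the gamma subunit of eIF2, which holds the tRNA and GTP. Its intensity was 752, 576, 423, 617 and 493 in the old CR mice, against 327, 439, 300.1, 363 and 217 in the old mice, with 427, 285, 358, 385 and 354 in the young mice. All but 1 of the old CR mice lay above every old mouse, and the young mice lay within the range of the old. The log2 difference was 0.81 for old CR minus old (SE 0.20, adjusted p = 0.0354, limma), a 1.75-fold change, and 0.65 for old CR minus young (SE 0.20, adjusted p = 0.211). The call ended without old replicate 1, 3, 4 or 5 or old CR replicate 2, 3, 6 or 7 (adjusted p from 0.051 to 0.0751, log2 difference from 0.67 to 0.86), as it did after centering the arrays on their medians (0.72, adjusted p = 0.0676) and in a fit of the compared groups alone (0.81, adjusted p = 0.0648).

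Its X-linked partner Eif2s3x was read by 3 probe sets that did not move alike. The brightest, 1423744_x_at, had 2095 ± 103 in old CR, 1914 ± 94.3 in old and 2011 ± 221 in young mice (SD, n = 5 each), and log2 differences of 0.13 for old CR minus old and -0.07 for old minus young. 1451090_a_at had 0.02 and 0.15 in these comparisons. 1421895_at, the dimmest, had 289, 323, 267, 255 and 268 in old CR, 188, 139, 131, 84.8 and 194 in old, and 565, 387, 161, 538 and 369 in young mice. Every old CR mouse was above every old mouse, and of the young mice only replicate 3 lay within the old range. Its log2 difference of -1.39 for old minus young (SE 0.31, adjusted p = 0.0696) had the smallest p of all members in that comparison, and 0.98 for old CR minus old missed the threshold as well (SE 0.31, adjusted p = 0.0801). Without young replicate 3 the age difference was -1.69 (adjusted p = 0.00141).

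Because both genes are read on the same array, their ratio does not depend on how that array was scaled. The log2 ratio of Eif2s3x to Eif2s3y, each by its brightest probe set, was 1.46, 1.80, 2.31, 1.72 and 2.20 in the old CR mice, against 2.57, 2.20, 2.59, 2.33 and 3.19 in the old mice and 2.45, 2.79, 2.26, 2.37 and 2.54 in the young mice. It averaged 1.90 ± 0.35 in old CR, 2.58 ± 0.38 in old and 2.48 ± 0.20 in young mice (SD, n = 5 each). The difference was -0.68 for old CR minus old (exact permutation test, two-sided, p = 0.0238) and -0.58 for old CR minus young (exact permutation test, p = 0.0159), and neither passed after adjustment over the 9 ratio tests (adjusted p = 0.107 for both). Probes of an _x_at set can also bind other transcripts, and the 2 genes are close in sequence.

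Around the annotated start of both genes the sequence carries a long run of pyrimidines, as the transcripts of many ribosomal proteins and translation factors do. RefSeq promoter sequence (build GRCm38.p6) was given for 42 of the 52 genes, and the 25 bases from 10 before to 15 after each annotated start were searched, on the coding strand alone, for at least 8 C or T in a row. Such a run was found at 12 of the 57 starts of these genes (21.1%), beside 9.49% of the 32851 starts of all genes, a description with no test, since the rule was chosen after some of these sequences had been seen. The 12 starts belong to 10 genes, with several alternative starts of Eif4enif1 among them. The windows of Eif2s3x and Eif2s3y are shown as the X- and Y-linked copies of 1 subunit, Eif3f as the eIF3 subunit described below, and Eef1a1 as the general elongation factor, with the run in capitals, 5′ to 3′.
Eif2s3x (chrX:94212637-94212661, minus strand): gagcaTTTTCCTTTTCTCTCCgagc
Eif2s3y (chrY:1010585-1010609, plus strand): ggccacagccaCTTCCTTCTTTCgt
Eif3f (chr7:108934405-108934429, plus strand): tctaggCTCTCTCTCTTTCTCggca
Eef1a1 (chr9:78481710-78481734, minus strand): ctccgCCCTCTTCCCgagggtgggg
The run is 16 bases long in Eif2s3x and 12 in Eif2s3y, and it is 15 in Eif3f and 10 in Eef1a1. In all of these but Eif2s3y it begins before the annotated start, so part of it lies outside the annotated transcript.

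Of the other eIF2 and eIF2B genes, Eif2s2, the beta subunit of eIF2, was read by 6 probe sets. Its 1448819_at had 1229.8 ± 241 in old CR, 1665 ± 170.1 in old and 1062 ± 446 in young mice (SD, n = 5 each), with a log2 difference of 0.72 for old minus young (SE 0.22, adjusted p = 0.139, limma) and no overlap between old CR and old. The other probe sets of Eif2s2 had -0.15 to 0.34 for old minus young. Eif2b2, a regulatory subunit of eIF2B, had 1847 ± 291 in old CR, 1366 ± 223 in old and 1829.7 ± 333 in young mice at 1451136_a_at (adjusted p = 0.144 for old CR against old and 0.245 for old against young), and log2 differences of -0.03 and -0.08 for old CR minus old at its other probe sets. Eif2b1, Eif2b4 and Eif2b5, further subunits of the exchange factor, were not called, with log2 differences of -0.31, 0.00 and 0.40 for old CR minus old. Eif2d, which can deliver initiator tRNA without eIF2, had 657 ± 46.9 in old CR, 553 ± 101 in old and 711 ± 54.1 in young mice at its brightest probe set (adjusted p = 0.181 for old against young).

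The 4 kinases that phosphorylate eIF2alpha each answer to a stress of their own, and 9 probe sets read them. Eif2ak1 and Eif2ak3 have 3 each, so they are not 9 independent readings, and several are dimmer than the median probe set. In old CR against old muscle 8 of the 9 had a higher mean, 3 at an unadjusted p, and 1 was called. The smallest of these 8 log2 differences was 0.06, for Eif2ak4. Of all probe sets 55.3% had a higher mean there, 12.5% were higher at an unadjusted p, and 2.70% were called higher. The called kinase probe set reads Eif2ak3 (PERK, the kinase of the unfolded protein response) and is dim: 1430371_x_at had 46.1, 37.4, 78.1, 37.4 and 41.9 in old CR, 7.40, 11.3, 9.93, 13.6 and 15.0 in old, and 31.1, 19.7, 11.3, 35.9 and 12.3 in young mice. All old CR mice lay above all mice of the other groups. Its log2 difference of 2.06 for old CR minus old (SE 0.33, adjusted p = 0.00791, limma) held when any 1 array was left out, but with intensities floored at 32 it was 0.53 (adjusted p = 0.0664). The bright probe set of Eif2ak3, 1449278_at, showed no such difference, with 334 ± 87.9 in old CR, 318 ± 129 in old and 289.7 ± 144 in young mice (SD, n = 5 each; log2 0.11, adjusted p = 0.875, for old CR minus old), nor did 1453505_a_at pass (0.48, adjusted p = 0.71).

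Eif2ak1 (HRI, the kinase that senses heme) had 1037, 1003, 1014, 1105 and 922 at 1421900_at in old CR mice, against 673, 339.9, 517, 886 and 524 in old and 997, 1029, 519, 1274 and 757 in young mice. The old CR mice lay above all the old mice, and young replicate 3 was again the lowest of the young. The log2 difference of 0.86 for old CR minus old did not pass (SE 0.26, adjusted p = 0.0693, limma), and the second bright probe set, 1421901_at, had 0.13. Eif2ak2 (PKR, activated by double-stranded RNA) had 182 ± 89.0 in old CR, 184 ± 86.4 in old and 214 ± 33.4 in young mice at its brightest probe set (SD, n = 5 each). Its other probe set, 1422005_at, had 175 ± 53.4 in old CR, 119 ± 32.1 in old and 129 ± 25.9 in young mice. The log2 difference of 1422005_at was 0.56 for old CR minus old (unadjusted p = 0.0332, adjusted p = 0.185, limma). Eif2ak4 (GCN2, the sensor of amino acid shortage) was dim on every array, between 7.49 and 21.7. Of 10 genes of the integrated stress response, which these kinases set off, none was called in any comparison. Here and in the other lists of related genes, each gene was read by its brightest probe set alone, and its other probe sets can differ. Asns, the asparagine synthetase that responds to GCN2, had 249 ± 79.0 in old CR and 398 ± 57.4 in old mice (adjusted p = 0.0682), and 276 ± 24.1 in young mice.

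**Figure D2:**
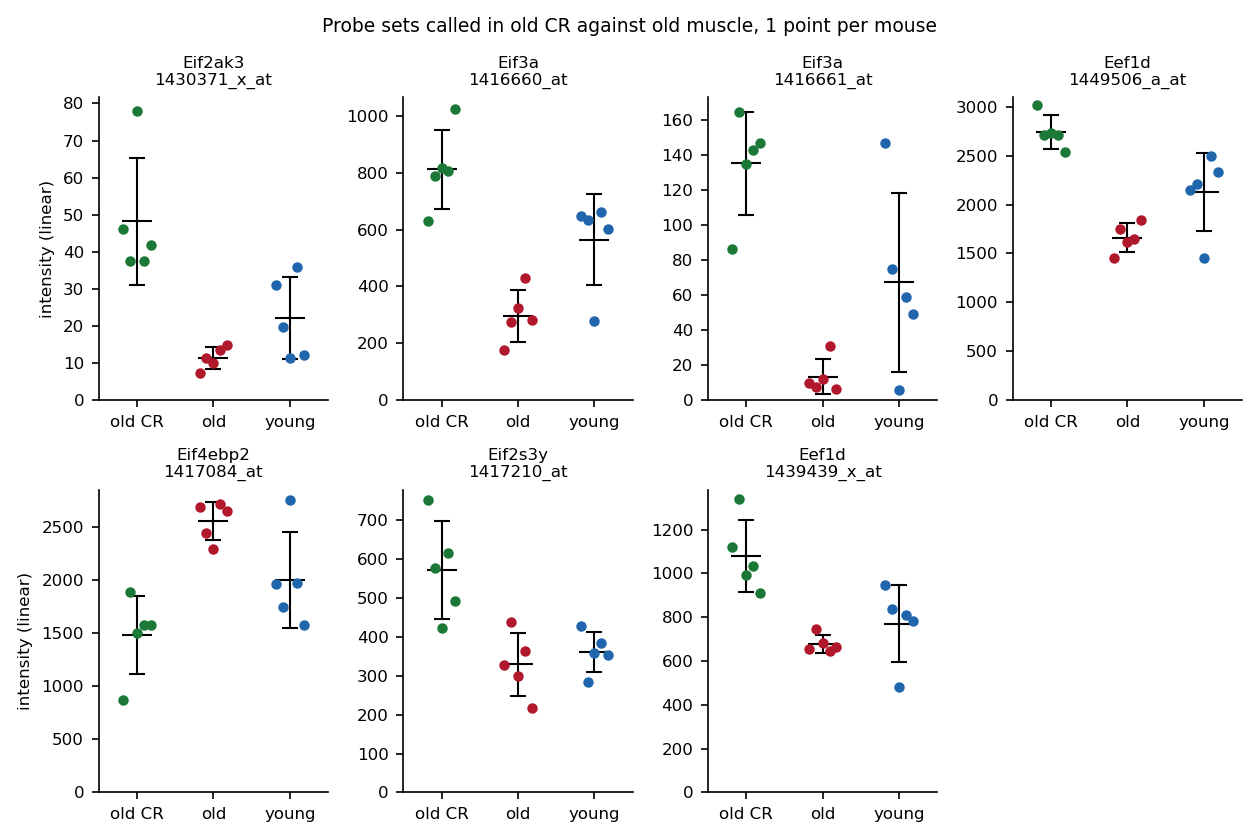
Linear intensity (vertical axes, from 0) of the 7 probe sets called in old CR against old muscle, 1 point per mouse, with the mean and SD of each group of 5. Old CR and old mice do not overlap except for Eif2s3y, and young replicate 3 gives the lowest young point for both Eif3a and both Eef1d probe sets.

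The eIF3 complex, the largest initiation factor, was read by 26 probe sets for 11 subunits. In old CR against old muscle 2 were called, both higher and both of Eif3a, the scaffold subunit, beside 2.70% of all probe sets called higher. At an unadjusted p 3 were higher and 6 lower, beside 12.5% and 9.33% of all probe sets. In old against young muscle none was called. There 6 were higher and 2 lower at an unadjusted p, beside 6.24% and 9.25% of all probe sets. At 1416660_at Eif3a had 632, 787, 816, 805 and 1023 in old CR, 177, 275, 324, 429 and 281 in old, and 648, 633, 280.3, 661 and 604 in young mice. Old CR and old mice were fully apart, and the young mice lay above the old except for replicate 3, which lay among them. This gave a log2 difference of 1.49 for old CR minus old (SE 0.26, adjusted p = 0.0113, limma), or 2.81-fold, and -0.92 for old minus young (SE 0.26, adjusted p = 0.121). The dim 1416661_at had 86.7, 165, 135, 143 and 147 in old CR, 9.92, 7.70, 12.2, 31.2 and 6.17 in old, and 147, 74.8, 5.89, 59.2 and 49.5 in young mice, with a log2 difference of 3.56 for old CR minus old (SE 0.68, adjusted p = 0.0143). Its old values all lie below 32, and with intensities floored at 32 the difference was 2.05 (adjusted p = 0.00411, limma), so its size is uncertain. Both calls held when any 1 array was left out.

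The other pair of Eif3a probe sets, which are brighter, pointed the other way. 1416659_at had 1966 ± 296 in old CR, 2628 ± 468 in old and 1891 ± 405 in young mice (SD, n = 5 each). Its log2 difference was -0.41 for old CR minus old (adjusted p = 0.194, limma) and 0.48 for old minus young (adjusted p = 0.209). 1448425_at had -0.25 and 0.30 in these comparisons (adjusted p = 0.262 and 0.279). Eif3a was thus called higher in old CR mice from 2 probe sets while its 2 brightest had lower means there, and the direction of this gene is uncertain.

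Eif3e, an eIF3 subunit also known as Int6, had its highest means in the old mice at all but the dimmest of its probe sets. At 1434523_x_at it had 3305, 3862, 3719.5, 3895 and 3869.8 in old CR mice, 5255, 4357, 3987, 5229 and 5145 in old mice, and 3068, 2586, 3916, 2507 and 3595 in young mice. The old mice lay above all others. Its log2 difference came to 0.63 for old minus young (SE 0.14, adjusted p = 0.0757, limma) and -0.36 for old CR minus old (SE 0.14, adjusted p = 0.167). 1439268_x_at had 0.65 for old minus young (adjusted p = 0.106) and -0.45 for old CR minus old (adjusted p = 0.147), and 1460432_a_at had 0.54 (adjusted p = 0.165) and -0.54 (adjusted p = 0.0931). The age difference of 1434523_x_at was called without young replicate 3 (0.71, adjusted p = 0.0118), as was that of 1439268_x_at (0.70, adjusted p = 0.0487). The remaining probe set of Eif3e, 1419822_at, was dim and did not follow the others, with -0.15 for old minus young.

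Eif3f, a subunit that muscle degrades during atrophy through the ubiquitin ligase atrogin-1, had 4877, 6187, 6235, 5192 and 4338 in old CR mice, against 7009, 7453, 6920.2, 8482 and 10698 in old mice and 6316, 4755, 6877, 6793 and 5587 in young mice. The old mice lay above all others, although the lowest of them (6920.2) was close to the highest young mouse (6877). The fitted log2 difference was -0.59 for old CR minus old (SE 0.16, adjusted p = 0.051, limma) and 0.41 for old minus young (SE 0.16, adjusted p = 0.235). Eif3i had 5162 ± 160.2 in old CR, 6735 ± 439 in old and 6238 ± 776 in young mice (SD, n = 5 each) at its brightest probe set, with no overlap between old CR and either other group (adjusted p = 0.0553 against old and 0.338 against young), and 0.03 for old CR minus old at the other. The subunits Eif3b, Eif3c, Eif3d, Eif3h, Eif3k, Eif3l and Eif3m were not called in any comparison.

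**Figure D3:**
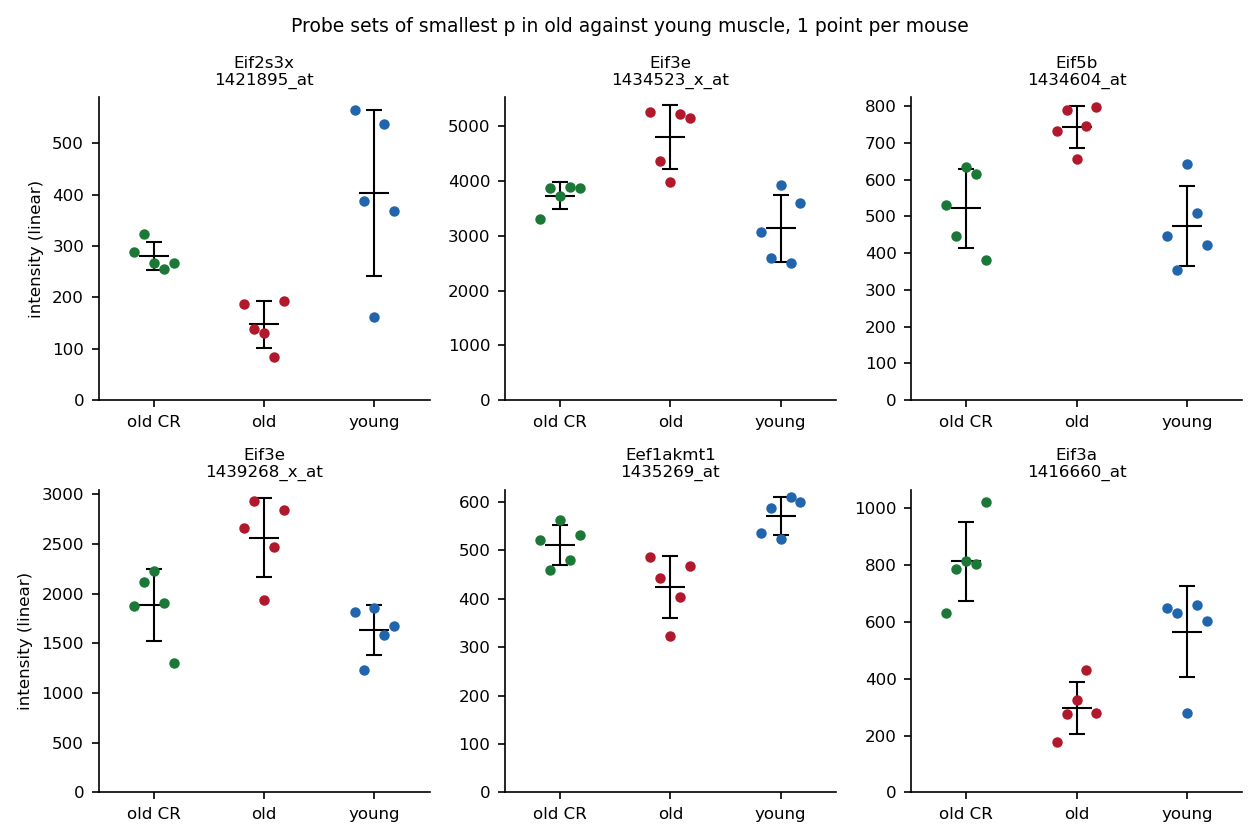
Linear intensity (vertical axes, from 0) of the 6 probe sets with the smallest p in old against young muscle, 1 point per mouse, with the mean and SD of each group of 5. None passed an adjusted p under 0.05. The old mice lie above all young mice for both Eif3e probe sets and Eif5b and below them for Eef1akmt1, and young replicate 3 falls among the old for Eif2s3x and Eif3a.

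The cap-binding complex of eIF4E, the helicase eIF4A, the scaffold eIF4G and their helpers was read by 24 probe sets, of which none was called in any comparison. In old CR against old muscle 4 were higher and 4 lower at an unadjusted p. The widest gap was that of Eif4a1, the helicase that unwinds the mRNA leader, at 1430980_a_at, with 1680.1, 1839, 2315, 1447 and 1905 in old CR, 721, 1005, 842, 891 and 792 in old, and 2146, 1895, 473, 2202 and 2353 in young mice. The old mice lay below all others but young replicate 3, which was the lowest of the 15. On the log2 scale the difference was 1.10 for old CR minus old (SE 0.36, adjusted p = 0.0877, limma) and -0.91 for old minus young (SE 0.36, adjusted p = 0.238). 1427058_at, a second probe set of Eif4a1, had 0.57 for old CR minus old (adjusted p = 0.164), and 1434985_a_at, the third, had -0.04.

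Eif4b, which stimulates that helicase, was read by 3 probe sets that differed in direction. 1426378_at had 2739 ± 301 in old CR, 3481 ± 411 in old and 2740.2 ± 286 in young mice (SD, n = 5 each), while 1426379_at had 1125 ± 259 in old CR, 549 ± 97.3 in old and 994 ± 424 in young mice. The log2 differences for old CR minus old were -0.35 (adjusted p = 0.124, limma) and 1.01 (adjusted p = 0.095). The third probe set, 1426380_at, had 2379.7 ± 355 in old CR, 2490.2 ± 467 in old and 2519.9 ± 355 in young mice, and -0.06 for old CR minus old. Eif4h, a related cofactor, had 2745 ± 401 in old CR, 4029 ± 594 in old and 3749.7 ± 752 in young mice, and -0.55 for old CR minus old (SE 0.16, adjusted p = 0.0589), with -0.26 and -0.24 at its other probe sets, so all 3 had lower means. Eif4e, the cap-binding protein, had 3296 ± 187 in old CR, 2835 ± 332 in old and 3033 ± 769 in young mice at its brightest probe set (adjusted p = 0.459 for old CR against old). Its dimmer probe sets differed, with lower means in both old groups than in young mice. 1423220_at had 769 ± 122 in old CR, 794 ± 102 in old and 1000.1 ± 189 in young mice. 1450909_at had 245 ± 59.6, 250.4 ± 38.3 and 347 ± 104. For old CR minus young their log2 differences were -0.37 and -0.50 (adjusted p = 0.365 and 0.358, limma). Eif4e3, a relative of Eif4e, had -0.53 for old CR minus old at one probe set (adjusted p = 0.0875) and 0.18 at the other. Eif4a2, Eif4g2 and Eif4g3 stayed within 0.26 of 0 on the log2 scale for old CR minus old.

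The proteins that sequester eIF4E were read by 9 probe sets for 3 genes, 5 of them for Eif4ebp2, so they are not 9 independent readings. Of the 9, 7 had a lower mean in old CR than in old mice, beside 44.7% of all probe sets. A higher mean in old mice than in young ones was found for 8, beside 43% of all probe sets. Eif4ebp2, a 4E-BP that binds eIF4E until mTORC1 phosphorylates it, was called. At 1417084_at it had 876, 1888, 1505, 1581 and 1579 in old CR mice, against 2689, 2446, 2298, 2717 and 2655 in old mice and 1962, 1751, 2762, 1972 and 1577 in young mice. All old CR mice lay below all old mice, and young replicate 3, the highest of the 15, lay above the old. This is a log2 difference of -0.83 for old CR minus old (SE 0.20, adjusted p = 0.032, limma) and 0.38 for old minus young (adjusted p = 0.377). The call ended without any 1 of the old replicates 1 to 5 or without old CR replicate 5, 6 or 7 (adjusted p from 0.0523 to 0.0629, log2 difference from -0.86 to -0.80). Of the other Eif4ebp2 probe sets, 1436158_at, 1437733_at and 1456613_at had -0.71, -0.40 and -0.85 for old CR minus old (adjusted p = 0.0964, 0.282 and 0.375), and 1455575_at had 0.30.

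Eif4ebp1, the 4E-BP that is most studied in muscle, had 1446, 2235, 1625, 1202 and 1277 in old CR, 1759.8, 1446, 1132, 3398 and 2223 in old, and 1319, 869, 1396, 1439 and 1056 in young mice at 1417562_at. The old mice spread widely, over a range that held all the old CR mice and 3 of the young. The log2 difference was 0.63 for old minus young (SE 0.27, adjusted p = 0.28, limma) and -0.29 for old CR minus old (adjusted p = 0.579). The log2 ratio of Eif4ebp1 to Eif4e within an array, each by its brightest probe set alone, was -1.12 ± 0.33 in old CR, -0.61 ± 0.69 in old and -1.31 ± 0.41 in young mice (SD, n = 5 each). No comparison of it passed (exact permutation test, p = 0.0714 for old against young, the smallest of the 3, adjusted p = 0.214). Eif4enif1, which carries eIF4E into the nucleus, had -0.35 for old CR minus old (adjusted p = 0.164).

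Of 20 genes around mTORC1, the kinase upstream of the 4E-BP proteins, 1 was called in old CR against old muscle and the same gene, with the opposite sign, in old against young muscle. Of all probe sets 2.70% were called higher in the first comparison and 0.146% lower in the second. The gene was Lamtor4, a subunit of the lysosomal anchor of mTORC1, with 910.1 ± 137 in old CR, 493 ± 12.5 in old and 843 ± 75.1 in young mice (SD, n = 5 each; adjusted p = 0.00511 for old CR against old and 0.0236 for old against young, limma). Sesn3, a sestrin, had 216 ± 101 in old CR, 426 ± 38.2 in old and 326 ± 126 in young mice (adjusted p = 0.0597 for old CR against old). At an unadjusted p under 0.05, 1 of the 20 was higher and 5 were lower in old CR than in old mice, beside 12.5% and 9.33% of all probe sets. Among 12 genes of the poly(A)-binding proteins and cap partners, 1 was called, lower, in old CR against old, beside 2.17% of all probe sets. It was Pabpc4, a poly(A)-binding protein, with 3697 ± 491 in old CR and 5646 ± 1039.5 in old mice (adjusted p = 0.0346). Of these 12 genes, 1 was higher and 6 were lower in old CR than in old mice at an unadjusted p under 0.05. Mknk2, a kinase of eIF4E, had 6526 ± 496 in old and 4469 ± 984 in young mice (adjusted p = 0.0949).

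The scanning factors and those of subunit joining were read by 13 probe sets, none of which was called. Eif5b, the GTPase that joins the subunits, had 532, 447, 635, 614 and 382 in old CR, 733, 790.1, 655, 745 and 797 in old, and 446, 354, 643, 508 and 422 in young mice at 1434604_at. The old mice lay above all others, with young replicate 3 the closest to them. The log2 difference was 0.67 for old minus young (SE 0.18, adjusted p = 0.102, limma) and -0.53 for old CR minus old (SE 0.18, adjusted p = 0.0938). The second probe set, 1434605_at, had 0.45 for old minus young and 0.07 for old CR minus old. Without young replicate 3 the age difference of 1434604_at was 0.79 (adjusted p = 0.0166).

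Eif1b, a factor of start codon choice, had a higher mean in both old groups than in young muscle, with 1289, 1329, 1403, 1426 and 1324 in old CR and 1437, 1348, 1143, 1399 and 1214 in old mice, against 823, 968, 1139.8, 1048 and 1119.8 in young mice. Neither old group overlapped the young mice, although the lowest old mouse (1143) was close to the highest young mouse (1139.8). The log2 difference was 0.42 for old CR minus young (SE 0.12, adjusted p = 0.173, limma) and 0.36 for old minus young (SE 0.12, adjusted p = 0.156), and 0.05 for old CR minus old. Eif5, which triggers GTP hydrolysis on eIF2, had 1397 ± 274 in old CR, 1101 ± 93.6 in old and 812 ± 225 in young mice (SD, n = 5 each) at 1454663_at. Its log2 difference of 0.81 for old CR minus young (SE 0.19, adjusted p = 0.123) had the smallest p of all members in that comparison, while the other Eif5 probe sets had -0.03, 0.28 and 0.25. Eif6, which keeps the large subunit from joining too early, had 1105 ± 104 in old CR, 891 ± 106 in old and 1057 ± 124 in young mice (adjusted p = 0.165 for old CR against old).

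Elongation proper was read by 7 probe sets of eEF1 and eEF2. Of these 2 were called, both higher in old CR than in old muscle, beside 2.70% of all probe sets called higher. Both read 1 gene, Eef1d, a subunit of the exchange factor that recharges eEF1A with GTP. At 1449506_a_at Eef1d had 3017, 2716, 2728, 2716 and 2534 in old CR, 1453, 1749, 1612, 1645 and 1845 in old, and 2149, 2205, 1449, 2497 and 2335 in young mice. The old CR mice lay above all the others, and young replicate 3 was the lowest of the 15. The log2 difference was 0.73 for old CR minus old (SE 0.14, adjusted p = 0.0161, limma), or 1.65-fold, and -0.34 for old minus young (SE 0.14, adjusted p = 0.274), and the call held when any 1 array was left out. 1439439_x_at had 1079 ± 164 in old CR, 677 ± 39.9 in old and 771 ± 174 in young mice (SD, n = 5 each), and its log2 difference was 0.66 for old CR minus old (SE 0.17, adjusted p = 0.0413). That call held only without young replicate 1, 2 or 3 and ended without young replicate 4 or 5 or any 1 array of the old CR or old mice (adjusted p from 0.0529 to 0.0843). It also ended after centering the arrays on their medians (0.57, adjusted p = 0.0614). The dimmest probe set of Eef1d had 0.50 (adjusted p = 0.606).

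None of the abundant elongation factors was called. Eef1a2, the form of eEF1A that replaces Eef1a1 in mature muscle fibers, had 20231 ± 2579 in old CR, 24829 ± 5417 in old and 20737 ± 3734 in young mice (SD, n = 5 each; adjusted p = 0.417 for old CR against old and 0.549 for old against young, limma). With the 3′ minus 5′ covariate described below its log2 difference for old minus young was 0.85 (adjusted p = 0.482), against 0.25 without. For old CR minus old it was -1.10 with the covariate (adjusted p = 0.574), against -0.27 without. Eef1a1 had 8643 ± 434 in old CR, 9011 ± 965 in old and 8157 ± 1950.4 in young mice. The log2 ratio of Eef1a2 to Eef1a1 within an array was 1.22 ± 0.17 in old CR, 1.44 ± 0.22 in old and 1.36 ± 0.40 in young mice, and the smallest p of its 3 comparisons was 0.127 (exact permutation test, old CR against old, adjusted p = 0.286). Eef2, the translocase, had 11611 ± 1008 in old CR, 10593 ± 1445 in old and 9860.4 ± 1671 in young mice, and its kinase Eef2k had 589.8 ± 62.2 in old CR, 573 ± 97.6 in old and 497 ± 107 in young mice. Neither was called, with log2 differences of 0.14 and 0.05 for old CR minus old (SE 0.14 and 0.16).

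Of the remaining members, Eif5a, the factor that carries hypusine and helps ribosomes past proline runs, had 8802 ± 453 in old CR, 8022 ± 625 in old and 8158 ± 259 in young mice at its brightest probe set (SD, n = 5 each; adjusted p = 0.44 for old CR against old, limma). Its other probe set, 1437859_x_at, had 4077 ± 346 in old CR, 3810.4 ± 674 in old and 4778 ± 674 in young mice. For old minus young the log2 difference was -0.33 there (adjusted p = 0.285), against -0.03 at the brightest. The methyltransferases named for the elongation factors they modify were read by 6 probe sets. One of 4 probe sets of Eef1akmt1 did not overlap between old (486, 442, 323, 403 and 468) and young mice (536, 588, 524, 611 and 599.8), with a log2 difference of -0.44 (SE 0.13, adjusted p = 0.117), while the other 3 had 0.02 to 0.10. Eef1e1, a scaffold of the multi-synthetase complex, had -0.24 for old CR minus old (adjusted p = 0.439).

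Among other genes of translation, 3 of 20 in the list of cytosolic tRNA synthetases were called higher in old CR than in old muscle (limma). None was called lower, beside 2.70% of all probe sets called higher and 2.17% called lower. At an unadjusted p under 0.05, 4 of the list were higher and 3 lower (Eprs, Iars and Aimp1). Sars, the seryl enzyme, had 1638 ± 97.0 in old CR, 564 ± 92.9 in old and 1283 ± 418 in young mice (SD, n = 5 each; adjusted p = 0.00522 for old CR against old and 0.054 for old against young). Cars, the cysteinyl enzyme, had 863 ± 75.0 in old CR and 397 ± 58.3 in old mice (adjusted p = 0.0102), and Yars, the tyrosyl enzyme, had 986 ± 85.8 in old CR and 516 ± 70.5 in old mice (adjusted p = 0.0359). Of 9 genes of termination and recycling 1 was called, higher in old CR, beside 2.70% of all probe sets. It was Denr, which helps to recycle the small subunit, with 1158 ± 126 in old CR and 826 ± 79.2 in old mice (adjusted p = 0.0361). All 6 mitochondrial translation factors had their lowest mean in the old mice when set against old CR and young mice, none of them called, such as Tufm, the mitochondrial elongation factor Tu, with 934 ± 136 in old CR, 602 ± 75.4 in old and 778 ± 185 in young mice (adjusted p = 0.058 for old CR against old). Of 6 hypusine and diphthamide enzymes none was called in any comparison.

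**Figure D4:**
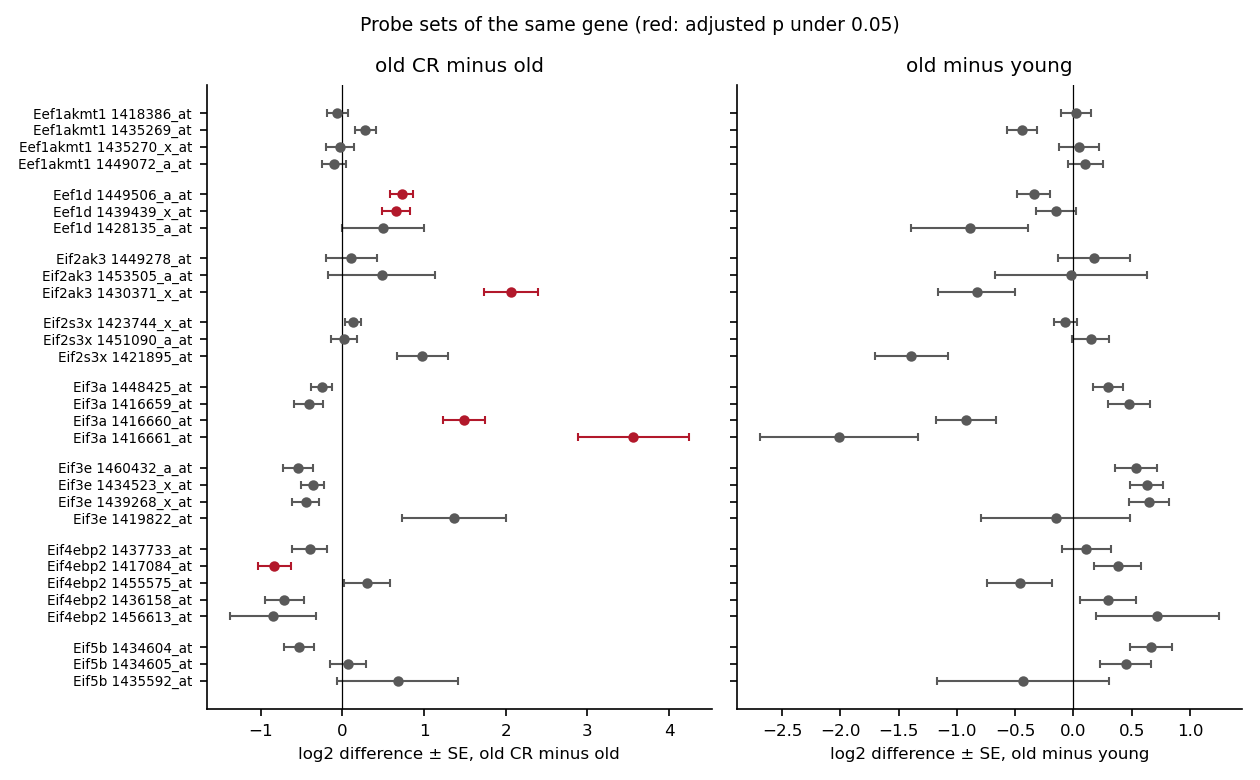
Log2 difference with its SE (horizontal axes) for every probe set of the 8 genes with several probe sets of which at least 1 was called or had one of the smallest p-values in old CR against old or old against young muscle, brightest first within a gene. The 4 Eif3a probe sets lie on both sides of 0 in both panels, whereas the brighter 3 of Eif3e lie on 1 side.

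Probe sets of the same gene often differed in the sign of their difference, in part where the differences were near 0. No such count was made over all genes, so how usual this is on the array is not known. Of the 30 genes with more than 1 probe set, the signs went both ways for 21 in old CR against old, 19 in old against young and 20 in old CR against young. In old CR against old muscle 2 genes, Eif3a and Eif4b, had probe sets on opposite sides that each passed an unadjusted p under 0.05 (limma), and in old against young muscle Eif3a alone did. Among the members, 49 probe sets carry a suffix for transcripts shared within a gene or with other genes, and 24 are dimmer than the median probe set.

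Of the 7 called differences, all but that of Eif2s3y were smaller once the 3′ minus 5′ difference was accounted for. With the mean of the Gapdh and Actb differences as a covariate in the fit, none of the 118 members was called in any comparison (limma), and over all probe sets 0 were called in old CR against old, 0 in old against young and 8 in old CR against young. Of the members, 6 passed an unadjusted p under 0.05 in old CR against old, 8 in old against young and 13 in old CR against young. The log2 difference for old CR minus old of Eif3a was then 0.12 at 1416660_at (SE 0.37) and 0.95 at 1416661_at (SE 1.21), that of Eef1d was 0.12 at 1449506_a_at (SE 0.24) and 0.18 at 1439439_x_at (SE 0.33), that of Eif2ak3 was 0.60 (SE 0.56) and that of Eif4ebp2 was -0.34 (SE 0.40). The difference of Eif2s3y was as large as without the covariate, 0.91 (SE 0.43, unadjusted p = 0.0537 and adjusted p = 0.78, limma), and so nearly was that of Eif3f, -0.54 (SE 0.35, adjusted p = 0.835). They were not alone in this, since Eif3a 1416659_at had -0.41 (SE 0.38) and Eif4b 1426378_at had -0.44 (SE 0.27) with the covariate. The difference of Eef1a2 grew, from -0.27 to -1.10 (SE 0.31, adjusted p = 0.574). Of the 118 members, 76 kept their sign in old CR against old. Old CR and old mice do not overlap on the covariate, and the standard errors over the members grew by a median ratio of 2.07, so diet and the 3′ minus 5′ difference cannot be told apart here. Old mice and the young mice other than replicate 3 do not overlap on it, so neither can age.

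**Figure D5:**
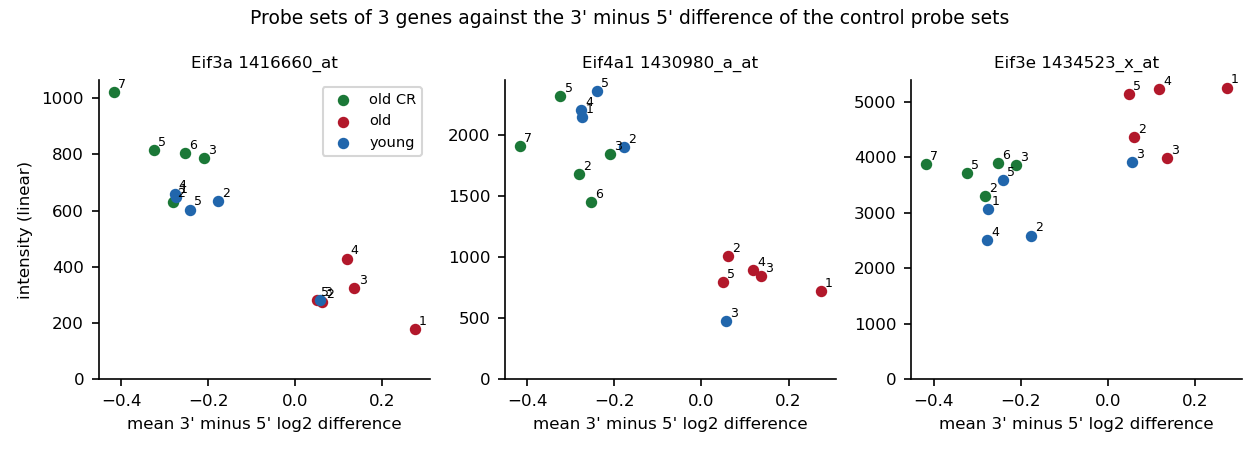
Linear intensity (vertical axes, from 0) of 1 probe set each of Eif3a, Eif4a1 and Eif3e against the 3′ minus 5′ log2 difference averaged over Gapdh and Actb (horizontal axes), 1 point per mouse, numbered by replicate. The 3 were chosen after their values were seen. Young replicate 3, at 0.056, lies with the old mice for Eif3a (280.3) and below them for Eif4a1 (473), and just under the lowest old mouse for Eif3e (3916).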

How the data were processed

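Total RNA was purified to polyadenylated RNA, labelled and hybridized to Affymetrix MOE430A arrays, 1 per mouse (15 arrays), and repeated scans were averaged. The authors deposited 1 linear intensity per probe set and array. Each array has a trimmed mean of 500.0, while array medians range from 201 to 243, so arrays were scaled singly. RMA and MAS5 are named in the submitters' processing notes, with versions not given in the sources used here, and the deposited intensities are not quantile-normalized RMA values. No detection calls were used. Groups follow the labels, which call the replicates biological, and precision is limited by 5 arrays per group.

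Here the intensities were converted to log2 with no pseudocount, 64 control probe sets were left out, and a model of the 3 groups was fitted to 22626 by lmFit and eBayes (limma 3.58.1, R 4.3.3), with p-values adjusted by Benjamini-Hochberg over all probe sets, calling at an adjusted p under 0.05. The fit was tested on simulated data. Within-array ratios and 3′ minus 5′ differences were compared with exact permutation tests in Python 3.11.15 (SciPy 1.17.1). Genes were named by the platform annotation, and all 118 members matched a current RefSeq symbol by gene ID. Named were every called member, the 6 members of smallest p per comparison, the eEF1A, eEF2, 4E-BP, eIF2 gamma and eIF2alpha kinase genes and members on the study's own list of age-related genes, which was chosen on these samples, the brightest probe set of many but not all genes of a role, and up to 3 genes of smallest p per list of related genes, each by its brightest probe set. Further probe sets of these genes, and which genes of a role are given in full, were chosen after their values were seen. Eif4e2, Eif1a, Eif1ax, Eef1b2, Eef2kmt and Eef1aknmt were not called in any comparison and are not described. The members, lists and tests were chosen with earlier results of these data known. Alternatives were only the probe sets brighter than the median, median centering, only the groups compared, a variance trend with robust eBayes, array weights, a floor of 32, the replicate number as a block, the 3′ minus 5′ covariate, an adjusted p under 0.10, leaving out each array, and, for ratios, a mean over every probe set of the gene.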

Additional observations from a re-analysis of the deposited data

Results flagged for a closer look

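In 123 groups of 5 mice, formed by the probe sets named by rule and the 3 groups, the highest or lowest mouse lay far from the other 4 in 14 by Dixon's test of the gap over the range, where chance gives about 1 group in 20. Young replicate 3 accounted for 6. It had 280.3 for Eif3a 1416660_at, where the other young mice had 604 to 661. It had 473 and 778 for Eif4a1 at 1430980_a_at and 1427058_at, where the others had 1895 to 2353 and 1669 to 1902. It had 1449 and 479 for Eef1d at 1449506_a_at and 1439439_x_at (others 2149 to 2497 and 781 to 947), and 14257 for Eef1a2 1418062_at (others 21642 to 23905).

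Old CR replicate 2 was low for Eef1a2 1418062_at, at 15782 (others 20302 to 22059), for Eif3e 1434523_x_at, at 3305 (others 3719.5 to 3895), and for Eif2ak2 1422006_at, at 47.8 (others 172 to 289). Old CR replicate 5 was high for the called Eif2ak3 1430371_x_at, at 78.1 (others 37.4 to 46.1), and old CR replicate 3 for Eif3a 1416659_at, at 2482 (others 1773 to 1930.1). Old replicate 4 was high for Eif5b 1434605_at, at 579 (others 478 to 489.9), and low for the dim Eif2ak4 1421389_a_at, at 7.49 (others 11.5 to 13.7). Young replicate 2 was high for the dim Eif2ak1 1453902_at, at 9.53 (others 6.07 to 6.90).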

How the results depend on the processing

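Each count of members is followed by the share of all probe sets called under the same setting. The 7 members called in old CR against old (4.87%) became 0 with the 3′ minus 5′ covariate (0 of all probe sets), 11 with array weights (5.93%), 14 with a variance trend and robust eBayes (7.36%), 16 of the 94 members brighter than the median (15.7% of all probe sets that bright) and 19 at an adjusted p under 0.10 (10.1%). With 1 array left out the count ran from 4 to 16 and the share from 2.04% to 7.32% (16 without young replicate 3, and 4 without old replicate 1, 3 or 5 or old CR replicate 6 or 7). In old against young, 0 members (0.265%) became 1 with the floor of 32 (227 of all probe sets), 2 at an adjusted p under 0.10 (1.68%), 4 with a variance trend (1.85%), 6 among the brighter probe sets (5.06%) and 7 with array weights (3.40%). With 1 array left out it ran from 0 to 11, above 0 without young replicate 3 alone (4.72%). Between old CR and young, 0 members (0.0884%) became 1 among the brighter probe sets (1.80%) and 1 with a variance trend (0.667%), and stayed 0 when any 1 array was left out. With the arrays centered on their medians 4 of the 7 calls were higher, against 6 without.

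Replicate numbers did not pair the mice (correlations of deviations from -0.281 to 0.094), and with the replicate number as a block 0, 7 and 0 members were called in old against young, old CR against old and old CR against young, as without it. Of 434 refits of 19 single probe set differences, those called or of smallest p, 372 kept their direction and side of the threshold, 39 lost and 22 gained a call, and 1 reversed: Eif3a 1416660_at in old against young was 0.08 with the covariate, against -0.92. The ratio differences that missed the threshold changed sign for Eif2s3x to Eif2s3y in old against young, from 0.10 to -0.27 with the mean of all probe sets and to -0.06 without old replicate 5 (-0.06 to 0.19 with any 1 array left out), and for Eef1a2 to Eef1a1 in old CR against young, from -0.14 to 0.03 without young replicate 2 (-0.21 to 0.03 with any 1 array left out). Over all alternatives the adjusted p in old CR against old ran from 0.00206 to 0.895 for Eif2ak3, 0.00815 to 0.914 for Eif4ebp2, 0.00964 to 0.78 for Eif2s3y and 0.0064 to 0.955 for the dimmer called Eef1d probe set. In old against young it ran from 0.00141 to 0.869 for Eif2s3x 1421895_at, 0.0118 to 0.839 for Eif3e 1434523_x_at and 0.0166 to 0.873 for Eif5b 1434604_at, the highest always with the covariate (limma). The cause of these changes was not tested. Dim probe sets limit what can be seen of Eif2ak4, Eif2ak2 and the dimmer Eif3h and Eif2d probe sets.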
